A study of Mus musculus with 6 samples.

Results

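The interleukin-1 (IL-1) family genes and inflammasome genes described here are 10 genes, chosen by symbol, out of 30803 rows in each table. They are the ligands Il1b, Il1a and Il18, the receptor antagonist Il1rn, the decoy receptor Il1r2, the accessory chain Il1rap, the sensor Nlrp3, the adaptor Pycard, the protease Casp1 and the pore former Gsdmd. All 10 symbols were found, each in a single row. Transcripts were measured by RNA sequencing in cells that the labels call hematopoietic stem cells, the marrow cells that give rise to all blood lineages. The cells came from the bone marrow of wild-type (WT) mice aged 12 months and were sorted by surface MHC class II, the antigen-presenting complex, into an MHCII-hi fraction with 3 libraries and an MHCII-lo fraction with 3 libraries. All mice shared the same genotype and age. The sources used here do not give the number of animals per library, any pooling or the gates of the sort.

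IL-1 beta and IL-18 are made as inactive precursors. An inflammasome, in which the sensor NLRP3 gathers the adaptor ASC (encoded by Pycard) and caspase-1, cuts them and also cuts gasdermin D, whose fragment forms the membrane pores through which the cytokines leave. IL-1 alpha and IL-1 beta signal through the same receptor with the same accessory chain, while the receptor antagonist and the decoy receptor limit that signal, and in marrow IL-1 is known to drive stem and progenitor cells towards myeloid output.

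Il1b and Il1a are shown first because they are neighbours on chromosome 2 with the same receptor and unlike levels. The gene body of Il1a (129299610 to 129309972, minus strand, GRCm38) ends 54.6 kb before that of Il1b (129364570 to 129371139, minus strand). The 250 bases before each start site, from RefSeq on GRCm38.p6, follow 5′ to 3′ on the minus strand, with matches to the TATA box letters TATAAA and to a C/EBP pattern, TTNNGNAA, in capitals.
Il1b, chr2:129371140-129371389: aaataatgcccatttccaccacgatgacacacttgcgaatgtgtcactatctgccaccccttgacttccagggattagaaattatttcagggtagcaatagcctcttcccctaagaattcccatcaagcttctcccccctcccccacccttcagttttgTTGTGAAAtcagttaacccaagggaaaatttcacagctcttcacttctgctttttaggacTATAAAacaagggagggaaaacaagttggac
Il1a, chr2:129309973-129310222: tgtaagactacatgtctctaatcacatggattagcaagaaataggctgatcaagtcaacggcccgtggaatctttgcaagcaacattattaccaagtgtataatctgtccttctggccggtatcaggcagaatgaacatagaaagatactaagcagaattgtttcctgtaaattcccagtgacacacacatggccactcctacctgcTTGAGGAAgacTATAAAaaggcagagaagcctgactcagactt
Both windows hold TATAAA at nearly the same place, from position -31 to -26 in Il1b and from -32 to -27 in Il1a, counted back from the start site. Each also holds 1 match to the C/EBP pattern, at -91 to -84 in Il1b and at -43 to -36 in Il1a, where it overlaps a match to GAGGAA, the core letters of PU.1 sites. Searched on both strands, TATAAA was present in 12.4% of 32851 such windows of all genes, TTNNGNAA in 36.8%, GAGGAA in 23.3%, and an NF-kB pattern, GGG and CC with 5 free bases between them, in 45.8%. Promoter windows were found for 9 of the 10 genes, and among these Il18 was the other one with TATAAA. The windows of Il1b and Il1a hold no match to the NF-kB pattern, and that of Il1r2 holds none to any of the 4 patterns. Such matches describe letters in a window and do not show that a factor binds there. The Il1r2 window (chr1:40085843-40086092) lies inside its annotated gene body (40074079 to 40125231, plus strand). The bases before the start of that gene body were not searched.

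The values are FPKM, a fragment count scaled to transcript length and to the library's mapped fragments, so levels can be compared between genes per length. Each library held 21184 to 21552 genes above 0, and the number of reads behind them is unknown. Libraries correlated at 0.991 to 0.992 within MHCII-hi, 0.992 to 0.993 within MHCII-lo and 0.945 to 0.946 between the fractions (log2 values of 12049 genes). Whether libraries of a fraction came from separate mice is not stated, and the p-values therefore reflect only how much these libraries vary, which may be technical variation. The 3 class II genes H2-Aa, H2-Ab1 and H2-Eb1 were all higher in MHCII-hi, the direction of the sort labels. Of 14 stem cell markers, 7 stayed under 1 FPKM in all 6 libraries, among them Procr, Slamf1 and Mecom, and the other 7 were tested, with 3 higher and 2 lower. Kit, a receptor of stem and progenitor cells, stood at 13.66 to 14.23 FPKM in MHCII-hi and 14.16 to 14.51 FPKM in MHCII-lo, and Cd34 at 11.39 to 11.85 and 14.98 to 15.78 FPKM in the same order. Each of 22 neutrophil markers was called higher in MHCII-hi, and their summed level was 55130 to 55770 FPKM in MHCII-hi and 9383 to 9466 FPKM in MHCII-lo, at most 16.1% of all FPKM in MHCII-hi and 2.89% in MHCII-lo. None of these markers was at 0.

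Differences are given as the MHCII-hi mean less the MHCII-lo mean of log2(FPKM + 1), a scale on which low genes change by less than their true ratio. Calls are limma calls at an adjusted p under 0.05 over the 12049 genes whose mean reached 1 FPKM. Of the 10 genes, 9 reached that mean. Among them 5 were higher in MHCII-hi (Il1b, Il1r2, Il1rn, Il1rap and Gsdmd), 2 were lower (Pycard and Casp1), and Il18 and Nlrp3 were not called. Across all tested genes 60.9% were called, 20.3% as higher and 40.5% as lower. The 10 genes and all lists below were chosen with earlier results of these data known, so such comparisons are descriptive only. The median log2 fold change was 0.40 over the 9 genes and -0.12 over all tested genes, and that shift of all genes became -0.02 after median-ratio scaling, so differences are also given relative to the median gene. The 3 values of one fraction lay wholly outside those of the other in 67.6% of all tested genes, and in every tested one of the 10 but Il18.

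**Figure D1:**
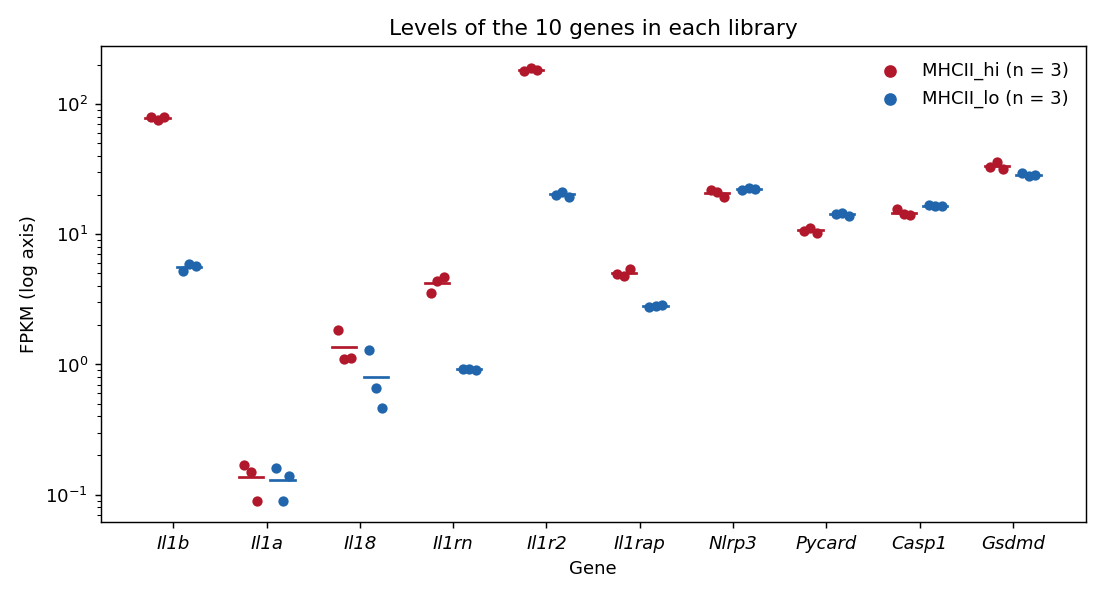
FPKM of the 10 genes on a log axis, with 1 point per library and a bar at the mean of 3 libraries, MHCII-hi in red and MHCII-lo in blue. Il1b and Il1r2 are the genes whose fractions lie far apart, at 78.4 against 5.62 and 184 against 20.3 FPKM, while Il1a lies near 0.13 FPKM in both.

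Il1b, the secreted agonist whose precursor the inflammasome cuts, had the largest difference of the 9 tested genes. It stood at 79.97, 75.4 and 79.82 FPKM in MHCII-hi libraries, against 5.23, 5.88 and 5.75 FPKM in MHCII-lo libraries. The fractions were far apart and the libraries within each were close. The means were 78.4 ± 2.60 FPKM in MHCII-hi and 5.62 ± 0.344 FPKM in MHCII-lo (SD, n = 3 each), a ratio of 13.9. The log2 fold change was 3.59 (SE 0.0473, 95% interval 3.47 to 3.70, limma adjusted p 1.20e-08), which is 3.70 relative to the median gene and the 12th highest of the 12049 tested genes. In a bulk sample, more cells that carry a transcript and more of it per cell cannot be told apart. The neutrophil markers above rose beside Il1b by a median of 2.77 on the same scale, and their part in this result was not tested. An antisense gene, Il1bos, overlaps Il1b, and it is not stated whether the quantification used strand. Il1bos was at or under 0.33 FPKM in MHCII-hi and 0.19 FPKM in MHCII-lo libraries.

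Il1a encodes the other agonist, which is active without cutting by caspase-1. It was listed at 0.17, 0.15 and 0.09 FPKM in MHCII-hi libraries, against 0.16, 0.09 and 0.14 FPKM in MHCII-lo libraries. The fractions overlapped, and all 6 values lay under the level for testing. Gm14023, a gene on the opposite strand that overlaps Il1a, averaged 0.25 FPKM in MHCII-hi and 0.18 FPKM in MHCII-lo, above Il1a itself, and reads of the 2 genes cannot be told apart if strand was not used. This touches the ratio of Il1a to Il1b as well. An exact two-sided permutation test on log2(FPKM + 1) gave p = 0.8, where the smallest p that 3 against 3 libraries allow is 0.1. Within a library the ratio of Il1a to Il1b was 0.00213, 0.00199 and 0.00113 in MHCII-hi and 0.0306, 0.0153 and 0.0243 in MHCII-lo, so Il1b exceeded Il1a in every library and by more in MHCII-hi. After adding 0.1 FPKM to both genes, the log2 ratio averaged -8.39 ± 0.284 in MHCII-hi and -4.65 ± 0.311 in MHCII-lo (SD, n = 3 each), at the smallest exact permutation p of 0.1.

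Il18, the other ligand cut by caspase-1, was low. Its values were 1.83, 1.11 and 1.12 FPKM in MHCII-hi and 1.28, 0.66 and 0.46 FPKM in MHCII-lo. The highest MHCII-lo library lay above 2 of the MHCII-hi libraries. The log2 fold change was 0.40 with a 95% interval of -0.07 to 0.87 and did not pass the test (limma adjusted p 0.119). It did pass without MHCII-lo replicate 1 (adjusted p 0.029, log2 fold change 0.58). The coefficient of variation between libraries was 30.5% in MHCII-hi and 53.4% in MHCII-lo, against 3.31% and 6.12% for Il1b. The opposite-strand gene Bco2 overlaps Il18, at a mean of 0.54 FPKM in both fractions, and its reads may be shared with Il18.

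Il1rn, which encodes the receptor antagonist, was higher in MHCII-hi, though at a far lower level than the agonist. It had 3.54, 4.35 and 4.72 FPKM in MHCII-hi libraries, against 0.93, 0.93 and 0.90 FPKM in MHCII-lo libraries. The fractions did not overlap, and the spread was wider in MHCII-hi. In log2 terms the difference was 1.43 (SE 0.0942, limma adjusted p 2.07e-05), 1.55 relative to the median gene. Antagonist transcript per agonist transcript lay lower in each MHCII-hi library than in any MHCII-lo library. The Il1rn to Il1b ratio was 0.0443, 0.0577 and 0.0591 in MHCII-hi libraries and 0.178, 0.158 and 0.157 in MHCII-lo libraries. With 0.1 FPKM added to both genes, its log2 value averaged -4.20 ± 0.226 in MHCII-hi and -2.49 ± 0.0992 in MHCII-lo (SD, n = 3 each). The difference was -1.71 at the smallest exact permutation p of 0.1. The plain ratio does not depend on a library's total, but its log2 value with 0.1 FPKM added does to some degree. With 1 FPKM added instead, the difference was -2.15.

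Il1r2, the decoy receptor that binds IL-1 without signalling, was the most abundant of the 10 genes in MHCII-hi. It stood at 179.45, 190.75 and 181.96 FPKM in MHCII-hi libraries, against 19.99, 21.28 and 19.50 FPKM in MHCII-lo libraries. The values did not come near each other. The means of 184 ± 5.93 FPKM in MHCII-hi and 20.3 ± 0.920 FPKM in MHCII-lo (SD, n = 3 each) gave a ratio of 9.09. The fitted log2 fold change was 3.12 (SE 0.0395, limma adjusted p 1.03e-08), the 22nd highest of all tested genes. Gm16894 on the opposite strand and Gm37347 on the same strand lie within Il1r2. They averaged 1.87 and 5.21 FPKM in MHCII-hi and 0.527 and 0.313 FPKM in MHCII-lo, against 184 and 20.3 FPKM of Il1r2.

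The signalling receptor Il1r1 lies 99.8 kb from Il1r2 on chromosome 1 and was scarce. It had 2.03, 1.61 and 1.85 FPKM in MHCII-hi libraries, against 1.01, 0.79 and 0.83 FPKM in MHCII-lo libraries, and was called higher (log2 fold change 0.59, limma adjusted p 0.00143). Decoy exceeded signalling receptor in every library. The Il1r2 to Il1r1 ratio was 88.4, 118 and 98.4 in MHCII-hi and 19.8, 26.9 and 23.5 in MHCII-lo. With 0.1 FPKM added to both, its log2 value averaged 6.58 ± 0.205 in MHCII-hi and 4.39 ± 0.204 in MHCII-lo (SD, n = 3 each), at the smallest exact permutation p of 0.1. The 3 ratios tested here cannot reach 0.05 with these numbers of libraries.

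Il1rap encodes the accessory chain shared by the receptors for IL-1, IL-33 and IL-36. It was at 4.96, 4.75 and 5.45 FPKM in MHCII-hi libraries and at 2.76, 2.80 and 2.88 FPKM in MHCII-lo libraries. No value of one fraction reached the other, and the log2 fold change was 0.67 (SE 0.0581, limma adjusted p 8.30e-05), or 0.78 relative to the median gene. The difference was 1.80-fold, well under those of Il1b and Il1r2.

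Further along the cluster of receptor genes on chromosome 1, both IL-18 receptor chains were higher in MHCII-hi. Il18rap, an IL-18 receptor chain, averaged 30.9 ± 0.468 FPKM in MHCII-hi and 11.0 ± 0.210 FPKM in MHCII-lo (SD, n = 3 each; log2 fold change 1.41, limma adjusted p 1.04e-07). Il18r1, its partner chain, averaged 4.86 ± 0.107 and 2.71 ± 0.106 FPKM in the same order (log2 fold change 0.66, limma adjusted p 3.69e-05). Il1rl1, the IL-33 receptor, stood at 2.15 ± 0.139 FPKM in MHCII-hi and 2.52 ± 0.185 FPKM in MHCII-lo and was not called (limma adjusted p 0.0864), although a fit with no variance trend called it lower (0.048). Il1rl2, the IL-36 receptor, is named for its place between these genes. It stood at 2.77 ± 0.143 FPKM in MHCII-hi and 3.25 ± 0.182 FPKM in MHCII-lo, and its call (limma adjusted p 0.0404) did not hold under any of the 3 other scalings (0.207 to 0.336), nor with unfiltered genes (0.0979), nor with a replicate block (0.0821), nor when any single library other than MHCII-lo replicate 2 was left out (0.0525 to 0.118).

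**Figure D2:**
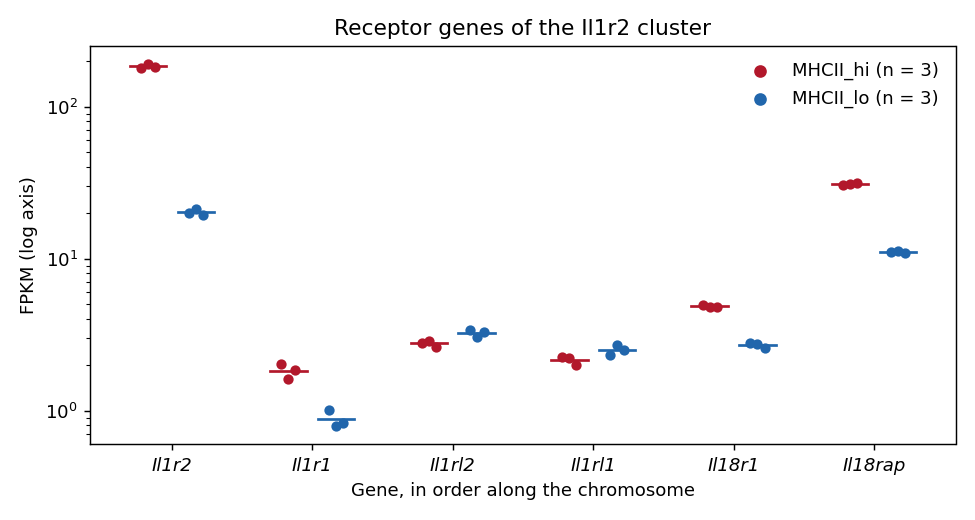
FPKM on a log axis of 6 receptor genes in their order along chromosome 1, with 1 point per library and a bar at the mean of 3, MHCII-hi in red and MHCII-lo in blue. Il1r2 is the highest in both fractions, Il18rap follows at 30.9 against 11.0 FPKM, and the genes between them stay under 5 FPKM.

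The 4 inflammasome genes differed far less than Il1b. Nlrp3, the sensor, had 21.83, 21.06 and 19.35 FPKM in MHCII-hi libraries, against 21.88, 22.48 and 22.44 FPKM in MHCII-lo libraries. The fractions nearly touched, with the highest MHCII-hi value just under the lowest MHCII-lo value. The log2 fold change was -0.10 with a 95% interval of -0.21 to 0.01 and was not called (limma adjusted p 0.105). Relative to the median gene it was 0.02, and median-ratio scaling gave 0.01. With MHCII-hi replicate 1 left out, Nlrp3 was called lower (-0.135, adjusted p 0.047).

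Pycard, whose product ASC links sensor and protease, was lower in MHCII-hi. It had 10.67, 11.21 and 10.30 FPKM in MHCII-hi libraries, against 14.22, 14.53 and 13.83 FPKM in MHCII-lo libraries. The fractions did not overlap. On the log2 scale the difference was -0.37 (SE 0.0415, limma adjusted p 0.000265), or -0.25 relative to the median gene.

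Casp1, the protease that cuts the IL-1 beta and IL-18 precursors, differed little. It stood at 15.63, 14.29 and 14.11 FPKM in MHCII-hi libraries and at 16.73, 16.42 and 16.54 FPKM in MHCII-lo libraries. The fractions were apart by less than the range within MHCII-hi. The log2 fold change was -0.17 (SE 0.0439, limma adjusted p 0.0151) but only -0.05 relative to the median gene. Other scalings ended the call, at an adjusted p of 0.332 by median ratios, 0.0684 by quantiles and 0.479 with neutrophil markers left out of the total. Casp4, which lies 1.56 kb from Casp1 on chromosome 9 and encodes the caspase that senses cytosolic lipopolysaccharide (caspase-11 of the mouse), was higher, at 8.36 ± 0.252 FPKM in MHCII-hi and 5.25 ± 0.301 FPKM in MHCII-lo (SD, n = 3 each; log2 fold change 0.58, limma adjusted p 7.64e-05).

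Gsdmd, which encodes the pore-forming gasdermin D, was a little higher in MHCII-hi. It had 32.61, 35.71 and 31.85 FPKM in MHCII-hi libraries, against 29.46, 27.95 and 28.58 FPKM in MHCII-lo libraries. The fractions did not overlap but lay close. On the log2 scale the difference was 0.21 (SE 0.0471, limma adjusted p 0.00708), or 0.33 relative to the median gene.

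**Figure D3:**
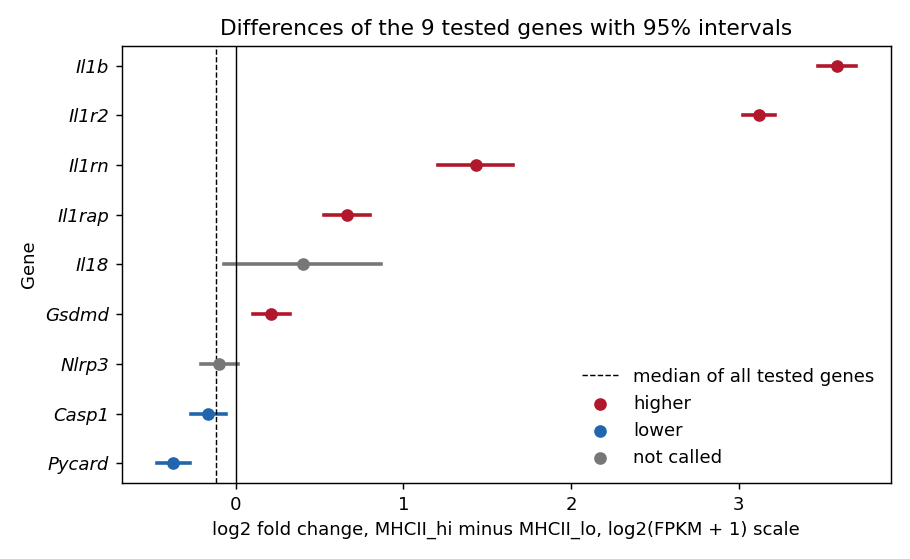
Log2 fold change of the 9 tested genes, MHCII-hi minus MHCII-lo, with 95% intervals from limma, the solid line at 0 and the dashed line at the median of all tested genes (-0.12). Il1b (3.59) and Il1r2 (3.12) stand apart from the 4 inflammasome genes, which lie between -0.37 and 0.21.

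The order of levels differed between the fractions. In MHCII-hi, Il1r2 and Il1b came first and second, ahead of Gsdmd, Nlrp3, Casp1, Pycard, Il1rap, Il1rn, Il18 and Il1a. No neighbours in that order overlapped, although Il1rap (lowest 4.75 FPKM) and Il1rn (highest 4.72 FPKM) nearly met. In MHCII-lo, Gsdmd and Nlrp3 came first, followed by Il1r2, Casp1, Pycard, Il1b, Il1rap, Il1rn, Il18 and Il1a, and there Il1rn and Il18 overlapped. The 10 genes together summed to 348.8 to 358.8 FPKM in MHCII-hi and 111 to 113 FPKM in MHCII-lo. Most of that difference lay in Il1r2 and Il1b, so the sums do not show a joint rise of the 10 genes.

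The rest of the pathway was read from 7 lists with 72 matched genes, of which 65 could be tested. Of these 24 were higher, 26 lower and 15 not called, against 20.3% higher and 40.5% lower of all tested genes. The split depended on the scaling, with 31 higher and 16 lower by median ratios. Their median log2 fold change was -0.03. Among other IL-1 family ligands, Il1f9, which encodes IL-36 gamma and lies near Il1rn on chromosome 2, averaged 57.9 ± 1.62 FPKM in MHCII-hi and 8.79 ± 0.365 FPKM in MHCII-lo (SD, n = 3 each; log2 fold change 2.59, limma adjusted p 2.23e-08), while Il33 and Il1f8 were too low to test. Of 7 receptors and soluble inhibitors, 4 were higher and 2 lower. Il18bp, the soluble inhibitor of IL-18, was among the higher ones, at 7.39 ± 0.179 FPKM in MHCII-hi and 1.96 ± 0.172 FPKM in MHCII-lo (log2 fold change 1.51, limma adjusted p 1.49e-06).

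Of 20 signalling genes downstream of the receptor, 5 were higher, 6 lower and 9 not called. Myd88, the adaptor of IL-1 and Toll-like receptors, was higher, at 37.8 ± 0.631 FPKM in MHCII-hi and 24.6 ± 0.528 FPKM in MHCII-lo (log2 fold change 0.60, limma adjusted p 4.17e-06). The kinase Irak4 averaged 9.44 ± 0.295 FPKM in MHCII-hi and 6.84 ± 0.318 FPKM in MHCII-lo (log2 fold change 0.41, limma adjusted p 0.000263). Nfkbia and Tnfaip3, which encode inhibitors of NF-kB signalling, were lower. Nfkbia stood at 89.5 ± 0.423 FPKM in MHCII-hi and 165 ± 2.56 FPKM in MHCII-lo (log2 fold change -0.87, limma adjusted p 1.36e-07). Tnfaip3 stood at 37.6 ± 0.963 FPKM in MHCII-hi and 60.6 ± 1.05 FPKM in MHCII-lo (log2 fold change -0.67, limma adjusted p 2.31e-06).

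Of 8 tested genes for other inflammasome sensors and adaptors, 5 were lower and 2 higher. Mefv (pyrin) stood at 13.61, 12.67 and 12.70 FPKM in MHCII-hi and at 20.96, 22.25 and 22.30 FPKM in MHCII-lo (log2 fold change -0.71, limma adjusted p 1.29e-05). Aim2, a sensor of cytosolic DNA, averaged 10.9 ± 0.395 FPKM in MHCII-hi and 17.7 ± 1.38 FPKM in MHCII-lo (log2 fold change -0.65, limma adjusted p 0.000109), and Nlrc4, which acts with NAIP proteins on bacterial flagellin, was lower as well (2.98 ± 0.436 and 4.39 ± 0.233 FPKM in the same order, limma adjusted p 0.00384). Nlrp12, a NOD-like receptor of myeloid cells, went the other way, at 3.75, 3.82 and 3.68 FPKM in MHCII-hi and 0.55, 0.52 and 0.67 FPKM in MHCII-lo (log2 fold change 1.59, limma adjusted p 2.60e-06). The Naip genes in this list are similar copies, and how reads were shared among them is uncertain.

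Of 8 caspases, pore formers and release genes, 5 were higher and 3 lower. Anxa1, an anti-inflammatory annexin, averaged 690 ± 6.90 FPKM in MHCII-hi and 172 ± 2.84 FPKM in MHCII-lo (a ratio of 4.01, SE 0.0182 of the log2 fold change, limma adjusted p 2.45e-09). Trpm2, a calcium channel opened by oxidative stress, averaged 9.90 ± 0.0814 FPKM in MHCII-hi and 1.76 ± 0.0400 FPKM in MHCII-lo (log2 fold change 1.98, limma adjusted p 9.17e-08). Gsdme, a second gasdermin, was 2.19 times as high in MHCII-hi (log2 fold change 0.83, limma adjusted p 4.05e-05), whereas Ninj1, which ruptures the membrane of dying cells, stood at 11.8 ± 0.911 FPKM in MHCII-hi and 18.8 ± 1.19 FPKM in MHCII-lo (log2 fold change -0.63, limma adjusted p 0.000218).

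Of 17 tested genes that activate or restrain NLRP3, 7 were higher, 7 lower and 3 not called. P2rx7, the ATP-gated channel whose opening triggers the NLRP3 inflammasome, was lower, at 1.80, 1.87 and 1.97 FPKM in MHCII-hi libraries against 5.32, 5.29 and 5.43 FPKM in MHCII-lo libraries (log2 fold change -1.14, SE 0.0503, limma adjusted p 2.75e-06). Panx1, a membrane channel that releases ATP, averaged 2.40 ± 0.241 FPKM in MHCII-hi and 3.64 ± 0.212 FPKM in MHCII-lo (log2 fold change -0.45, limma adjusted p 0.00162). Serpinb1a, an inhibitor of neutrophil serine proteases, averaged 307 ± 2.32 FPKM in MHCII-hi and 152 ± 6.05 FPKM in MHCII-lo (log2 fold change 1.01, limma adjusted p 4.37e-07). Nlrx1, a mitochondrial NOD-like receptor, averaged 9.77 ± 0.294 FPKM in MHCII-hi and 4.66 ± 0.373 FPKM in MHCII-lo (log2 fold change 0.93, limma adjusted p 1.50e-05).

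Serine proteases of neutrophil granules can also process IL-1 family cytokines. The list for them held Elane, Prtn3, Ctsg and Ctsc, the last a cysteine protease that activates the others, and of these 4 genes none was higher and 3 were lower. Elane, neutrophil elastase, stood at 1331 ± 0.948 FPKM in MHCII-hi and 1708 ± 29.5 FPKM in MHCII-lo (log2 fold change -0.36, limma adjusted p 2.05e-06), and Prtn3, proteinase 3, at 646 ± 7.84 FPKM in MHCII-hi and 840 ± 18.4 FPKM in MHCII-lo (log2 fold change -0.38, limma adjusted p 6.27e-06). Ctsc had a log2 fold change of -0.16 whose call (limma adjusted p 0.00593) did not hold by median ratios (0.305) or with neutrophil markers left out of the total (0.511). Ctsg, cathepsin G, was at 1031 ± 24.2 FPKM in MHCII-hi and 1006 ± 5.99 FPKM in MHCII-lo and was not called (limma adjusted p 0.158). Its direction turned on the scaling: it was called higher by median ratios (0.15, adjusted p 0.000474) and lower by quantiles (-0.0593, adjusted p 0.022). With MHCII-hi replicate 1 left out, Ctsg was also called higher (adjusted p 0.0146).

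**Figure D4:**
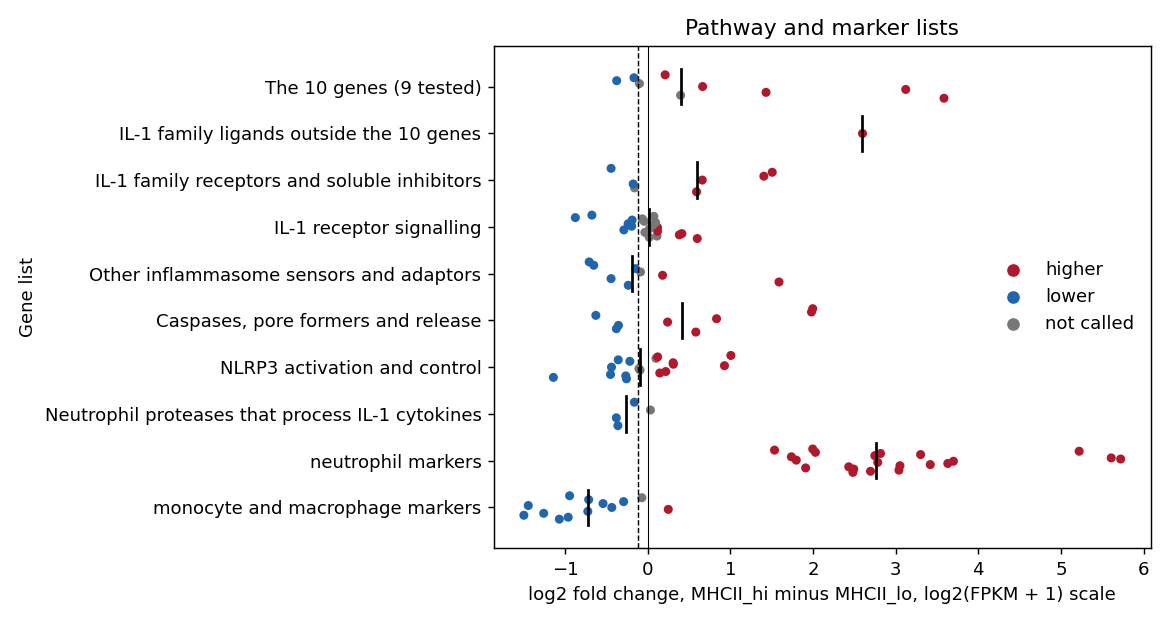
Log2 fold change of tested genes in each list, MHCII-hi minus MHCII-lo, with 1 point per gene (red higher, blue lower, grey not called), a black bar at the list median and the dashed line at the median of all tested genes (-0.12). The 9 tested genes of the 10 spread from -0.37 to 3.59, all 22 neutrophil markers lie above 0, and 11 of 13 monocyte and macrophage markers are lower.

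The genes whose profile over the 6 libraries was most like that of Il1b were Mmp9, Mmp8, Cxcr2, Olfm4 and Fpr1, among 6817 candidates whose mean reached 5 FPKM. The measure was the Euclidean distance between log2 profiles centred on their own means, and it was 0.135 for Mmp9 and 0.423 for Fpr1. Mmp9, a gelatinase of neutrophil granules, averaged 403 ± 3.23 FPKM in MHCII-hi and 31.6 ± 0.977 FPKM in MHCII-lo (log2 fold change 3.63, limma adjusted p 9.34e-10). Of these 5 genes, Olfm4 is the one that is not in the neutrophil marker list. For Casp1 the nearest were Cxxc1, Snrnp48, Fnbp4, Ilk and Adnp2, at distances of 0.0221 to 0.0457. The 6 points of each profile share their fraction in groups of 3. For Il1b, a small distance therefore largely means a similar difference between the fractions. The log2 fold changes of its 5 nearest genes were 3.30 to 3.81, against 3.59 for Il1b. The measure does not separate shared variation within a fraction from the difference between fractions. For Casp1, whose fractions differed little, variation within a fraction weighs more in the distance than for Il1b.

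Monocytes and macrophages also express several of these genes. Of their 13 markers, 11 were lower in MHCII-hi and 1 was higher, with sums of 2519 to 2559 FPKM in MHCII-hi and 3344 to 3376 FPKM in MHCII-lo, and none was at 0. Most of each sum was Lyz2, at a mean of 2125 FPKM in MHCII-hi and 2600 FPKM in MHCII-lo. All 9 tested dendritic cell markers were lower, with sums of 170.1 to 174.9 FPKM in MHCII-hi and 317.4 to 324.8 FPKM in MHCII-lo. Of 4 tested B cell markers 3 were higher and none lower, with sums over 14 markers of 365.6 to 374.1 FPKM in MHCII-hi and 119.6 to 127.4 FPKM in MHCII-lo. Of 8 tested mast cell and basophil markers 6 were lower and 1 higher, with sums of 417.9 to 426.1 FPKM in MHCII-hi and 856.7 to 884.5 FPKM in MHCII-lo. Of 8 tested T and NK cell markers 4 were lower and none higher. Beside these counts, 40.5% of all tested genes were lower and 20.3% higher, and the T and NK cell share lower was near the former. The part of these cell types in the levels of the 10 genes was not tested.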

How the data were processed

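RNA from cells labelled as hematopoietic stem cells was sequenced from 3 MHCII-hi and 3 MHCII-lo libraries, grouped and numbered by the labels. The labels' protocols name a column kit for small samples and a stranded poly(A) library kit. Per the submitters' processing notes the tools were fastp, HISAT2 and StringTie with GRCm38 (mm10); the sources used here do not give versions, annotation release or use of strand. The deposited values were taken as FPKM: no header names the unit, but StringTie writes it, the values have 2 decimals, and library sums (327364 to 346651) are not fixed. Being relative, FPKM fall for other genes where abundant genes take more of a library. A step of 1 fragment was sought in low values of single-exon genes (highest mean cosine 0.0721 to 0.0888) and none was found, so depth is unknown and no count model was used.

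The 70 extra rows of repeated symbols were kept apart; none was of the 10 genes. Genes averaging 1 FPKM or more were fitted as log2(FPKM + 1) by limma 3.58.1 (R 4.3.3) with the fraction as sole factor and a variance trend over level, and p-values were adjusted by Benjamini-Hochberg, threshold 0.05; the fit was tested on simulated data. Python 3.11.15, pandas 2.3.3 and scipy 1.17.1 served for exact permutation tests and lists. Lists held 184 entries (9 not found, 3 matched through a synonym). Named genes were the 10, the 4 called genes with the largest change per pathway list, 10 set genes, and the 5 genes nearest to Il1b and to Casp1. The 10 genes and all lists were chosen with earlier results of these data known. Positions are from GENCODE M21, promoter windows from RefSeq (GRCm38.p6). Alternatives were other pseudocounts, filters, scalings and variance models, the replicate number as a block, and leaving out each library.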

Additional observations from a re-analysis of the deposited data

How the results depend on the processing

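The calls for Il1b, Il1r2, Il1rn, Il1rap, Gsdmd and Pycard kept their direction and their side of the threshold in every alternative that tested them; Il1rn and Il1rap fall under a mean of 5 FPKM, where 3 of the 10 genes were called higher. The count called lower dropped to 1 after median-ratio scaling, after quantile normalization and with neutrophil markers left out of the total, each of which ended the call for Casp1. Nlrp3 turned to 0.0136 after median-ratio scaling and 0.0298 with neutrophil markers left out, without a call, and Ctsg to -0.0593 after quantile normalization. Pathway genes went from 24 higher and 26 lower as deposited to 31 higher and 16 lower, both under median-ratio scaling and with the total without neutrophil markers. Over all genes the split of higher to lower calls was 2451 to 4883 as deposited (33.4% higher), 3259 to 3279 (49.8%) after median-ratio scaling, 2819 to 4025 (41.2%) after quantile normalization and 3429 to 3087 (52.6%) with neutrophil markers left out of the total. With 1 FPKM added in place of 0.1, the difference in log2 Il1rn to Il1b was -2.15 and in log2 Il1r2 to Il1r1 2.53. Leaving out single libraries gave 5 to 6 of the 10 genes higher and 2 to 3 lower, and kept the ratio differences between -1.79 and -1.58 (Il1rn to Il1b), 2.08 and 2.29 (Il1r2 to Il1r1) and -3.91 and -3.58 (Il1a to Il1b).

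Whether replicate numbers pair the libraries is not stated. Deviations from the fraction means correlated at -0.0422 to -0.0401 for same-numbered libraries and at 0.00794 to 0.0356 for the others. With 3 libraries per fraction such values cannot decide whether the libraries were paired. With the replicate number as a block, 6 of the 10 genes were higher and 2 lower, Il18 being added (adjusted p 0.0231) and the call of Il1rl2 being lost (0.0821), with 20 pathway genes higher and 23 lower, and 2309 and 4662 of all genes; the ratio differences were -1.71, 2.19 and -3.74 with exact sign-flip p of 0.25, the smallest 3 pairs allow. The tables carry no depth, so the precision of the lowest genes, Il1a and Il18, is known only from the spread between libraries. The causes of these shifts were not tested.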
